A study of Mus musculus with 17 samples.

Results

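The nuclei described here came from single-nucleus RNA-seq (sNucDrop-seq) of the neocortex of C57BL/6 mice at postnatal day 80, and were selected by a rule on their own transcript counts. A nucleus was a member if it held at least 1 UMI (unique molecular identifier, a counted RNA molecule) of Gad1 or Gad2, at least 3 of the 7 genes C130073E24Rik, Rmst, Pbx3, Hap1, Nhs, Baiap3 and Zcchc12, and no UMI of Slc17a7, Rgs9, Adarb2 or Pvalb. Of 31486 nuclei with 600 to 5000 genes and under 5% mitochondrial UMIs, 138 were members, a share of 0.438%. All mice were males of this strain, with no genetic change named. Single nuclei came from 4 control mice and 4 mice under chronic unpredictable stress (CUS), in which varied stressors were given each day for nearly a fortnight, and neocortex was taken a day after the last one. Bulk nuclear RNA of the medial prefrontal cortex (mPFC) came from 4 control and 5 CUS mice at postnatal day 90. Controls were kept in another room and handled each day, so that stress and room cannot be told apart.

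GABAergic neurons make their transmitter from glutamate with the decarboxylases that Gad1 and Gad2 encode, and load it into vesicles with the transporter Slc32a1. In cortex most of them are local interneurons, marked by Sst, Pvalb, Vip or Lamp5, and the neighbouring striatum holds GABAergic projection neurons, the medium spiny neurons, marked by Rgs9, Drd1, Tac1 and Penk. The rule genes are of several kinds. C130073E24Rik and Rmst are long intergenic non-coding RNAs, Pbx3 encodes a homeodomain transcription factor, Hap1 the huntingtin-associated protein, Baiap3 a Munc13-like protein of dense-core vesicle traffic, Zcchc12 a zinc finger protein and Nhs the protein altered in Nance-Horan syndrome. In the mm10 coordinates of the bulk tables, all on the minus strand but Zcchc12, C130073E24Rik lies at chr8:50743291-50916997, Rmst at chr10:92071037-92165170, Pbx3 at chr2:34171457-34373142 and Hap1 at chr11:100347327-100356128. Baiap3 lies at chr17:25242659-25256364, Nhs at chrX:161833296-162159730 and Zcchc12 at chrX:36195904-36199158.

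The rule set the number of members step by step. At least 3 rule genes were detected in 1036 nuclei, of which 423 had no UMI of Gad1 or Gad2 and 613 had one. A gene that the rule requires at 0 was present in 475 of those 613, with Rgs9 in 281, Adarb2 in 262, Slc17a7 in 106 and Pvalb in 27. Among the 138 members, 92 held exactly 3 rule genes, 33 held 4, 9 held 5, 4 held 6 and none held all 7. Just outside the threshold lay 308 nuclei with 2 rule genes that met the rule otherwise. Those 308 had a Slc32a1 UMI in 34.1%, a Gabrg1 UMI in 9.09% and a Baiap3 UMI in 7.47% of nuclei, beside 37.7%, 22.5% and 31.9% of the members. Baiap3 is itself a rule gene, so its shares were bound to the rule. Members had a median of 2670.5 UMIs against 2094 over all kept nuclei and 1917 over 5489 other GABAergic nuclei, which were those with a Gad1 or Gad2 UMI, no Slc17a7 and at most 1 rule gene. A doublet score above 0.2, by the steps of Scrublet, was found in 29.7% of the members and in 21.3% of all kept nuclei. The 8 mice gave 9 to 26 members each, and their summed UMIs ran from 23204 to 92182 a mouse.

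The rule genes were unevenly spread among the members, which these values chose. C130073E24Rik was detected in 95 of 138 members, Nhs in 88, Hap1 in 76, Zcchc12 in 65, Rmst in 58, Pbx3 in 51 and Baiap3 in 44. Against the other GABAergic nuclei, in which at most 1 rule gene was allowed, Baiap3 was the rarest of the 7, with a UMI in 0.638% of nuclei. Gad2 was present in 124 members, Gad1 in 66 and both in 52.

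The name GABAergic was checked with Slc32a1, which the rule did not use. Slc32a1 had a UMI in 52 of 138 members, 37.7% (exact 95% interval 29.6 to 46.3%). In the other GABAergic nuclei it was 29.0%. In 8237 Slc17a7 nuclei, which should lack the gene and whose median depth was 2894 UMIs, it was 2.21%. These had a Slc17a7 UMI and no UMI of Gad1 or Gad2, so nuclei with stray Gad1 or Gad2 RNA were already left out of them. With every nucleus thinned to 1000 UMIs, which left out 6 members, 459 other GABAergic nuclei and 245 Slc17a7 nuclei, the shares were 18.9%, 16.7% and 0.838%. Such intervals cover counting error only. Slc17a6, the vesicular glutamate transporter of subcortical neurons, had a UMI in 7 members, 5.07%, beside 2.11% of the other GABAergic and 5.65% of the Slc17a7 nuclei. Thinned, its shares were 0.758%, 1.09% and 2.12%, so that a higher share in members was not detectable at this depth. Of the other transmitter genes, Ddc, which encodes aromatic amino acid decarboxylase, was found in 9 members, all of them in the cluster that held most members. Slc18a3, Slc5a7, Tph2 and Hdc, which mark cholinergic, serotonergic and histaminergic cells, had no UMI in 138 members, which allows a share of nuclei with a UMI of up to 2.17% and sets no limit on nuclei that express the gene.

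The members were not a single kind of nucleus. All kept nuclei were clustered on 2000 variable genes without regard to the rule, and members fell into 18 clusters. The cluster that held most, with 67 of 138 (48.6%), was led by C130073E24Rik, Baiap3, Rmst, Gm45323 and Prlr, the prolactin receptor gene. It is called the main cluster below. A second group of 24 lay in a cluster led by Sst, Npy, Grin3a, Crhbp and Nxph1, and all 24 had an Sst UMI. Another 14 lay in a cluster led by Tac1, Rgs9, Rarb, Drd1 and Foxp2 and 8 in one led by Erbb4, Btbd11, Pvalb, Kcnmb2 and Nxph1. The other 25 members were spread over 14 further clusters, with at most 6 in any. Pbx3 was not among the leading genes of the main cluster, and C130073E24Rik, Baiap3 and Rmst were used by the rule, so the cluster gives no independent check of the label Pbx3 Rmst C130073E24Rik GABAergic nuclei. All 138 are called members here, after the rule.

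**Figure D1:**
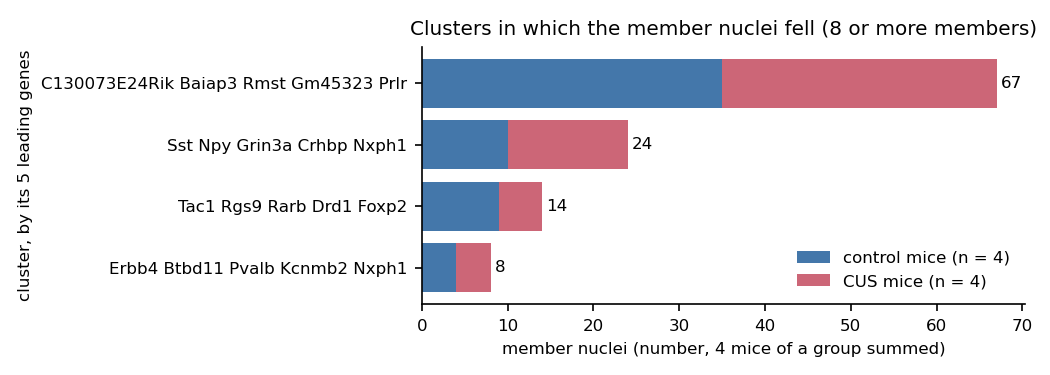
Number of member nuclei in each cluster that held 8 or more, with clusters named by their 5 leading genes on the vertical axis and the members of 4 control mice (blue) and 4 CUS mice (red) stacked on the horizontal axis. The main cluster held 67 members, the Sst-led cluster 24 and the Tac1-led cluster 14.

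The main cluster was in turn larger than the members it held. It had 911 nuclei, of which 406 (44.6%) had no Gad1 or Gad2 UMI, 300 had one but under 3 rule genes, 138 met both but carried a gene that the rule requires at 0, and 67 (7.35%) were members. Gad2 was detected in 48.4% of its nuclei, Slc32a1 in 23.8%, Slc17a6 in 18.4% and Slc17a7 in 8.23%. A doublet score above 0.2 was found in 44.1% of its nuclei.

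Members inside and outside the main cluster differed most in genes that had also placed them there, so the values are a description. In the main cluster the zinc finger homeobox gene Zfhx3 was detected in 30 of 67 members and elsewhere in 7 of 71. Its level, as counts scaled to the summed UMIs of the nuclei (CPM), was 275 against 32.1. Zfhx4, a relative of Zfhx3, was at 198 against 28.1 CPM, and the glycine receptor subunit gene Glra3 at 247 against 20.1 CPM. The GABA-A receptor subunit gene Gabrg1 was at 198 against 40.2 CPM, and Tshz2, a zinc finger factor gene, at 165 against 28.1 CPM. These 5 genes were all higher inside the main cluster.

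Sst was among the genes higher outside it. The summed levels of whole marker lists were 1823 CPM inside and 5623 CPM outside for interneurons, 450.3 and 1422 CPM for astrocytes, and 286 and 791 CPM for the oligodendrocyte lineage. Sst was at 2438 CPM outside against 242 CPM inside, and was detected in 34 of 71 members against 15 of 67. Crhbp, which encodes the binding protein of corticotropin-releasing hormone, was at 145 CPM outside, in 16 members, and had no UMI inside. Col19a1, a collagen gene, was at 245 against 16.5 CPM, the transcription factor gene Tcf4 at 960.0 against 154 CPM, Maf at 116 against 5.49 CPM and Sox6 at 293 against 49.4 CPM. Lhx6, the transcription factor of interneurons born in the medial ganglionic eminence, was found in 11 of 71 members outside and 2 of 67 inside. The median depth was 3362 UMIs outside and 2349 inside the main cluster.

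Neuropeptide genes varied among the members. The summed level of 29 such genes was 3953 CPM in members, 3072 CPM in other GABAergic nuclei and 3551 CPM in Rgs9 GABAergic nuclei. It was 3321 CPM in GABAergic nuclei with Adarb2 or Pvalb and 4365 CPM in the 308 nuclei just outside the threshold. Within the members it was 2290 CPM in the main cluster, below each of these kinds, and 5170 CPM outside it. Npy had a UMI in 22.5% of members, beside 21.4% of other GABAergic and 7.00% of Slc17a7 nuclei. Penk had one in 19.6%, beside 18.4% and 8.89%, and Nts in 6.52%, beside 2.15% and 0.631%. Penk, the enkephalin precursor, was found in 15 of 67 members inside the main cluster and 12 of 71 outside it, and Nts, the neurotensin precursor, in 8 and 1. Sst was detected in 35.5% of members, beside 18.5% of other GABAergic nuclei and 7.67% of Slc17a7 nuclei. Thinned to 1000 UMIs, the shares were 31.8%, 13.6% and 2.73%. The 308 nuclei just outside the threshold had a like Sst share, 36.7%, and 33.0% when thinned.

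**Figure D2:**
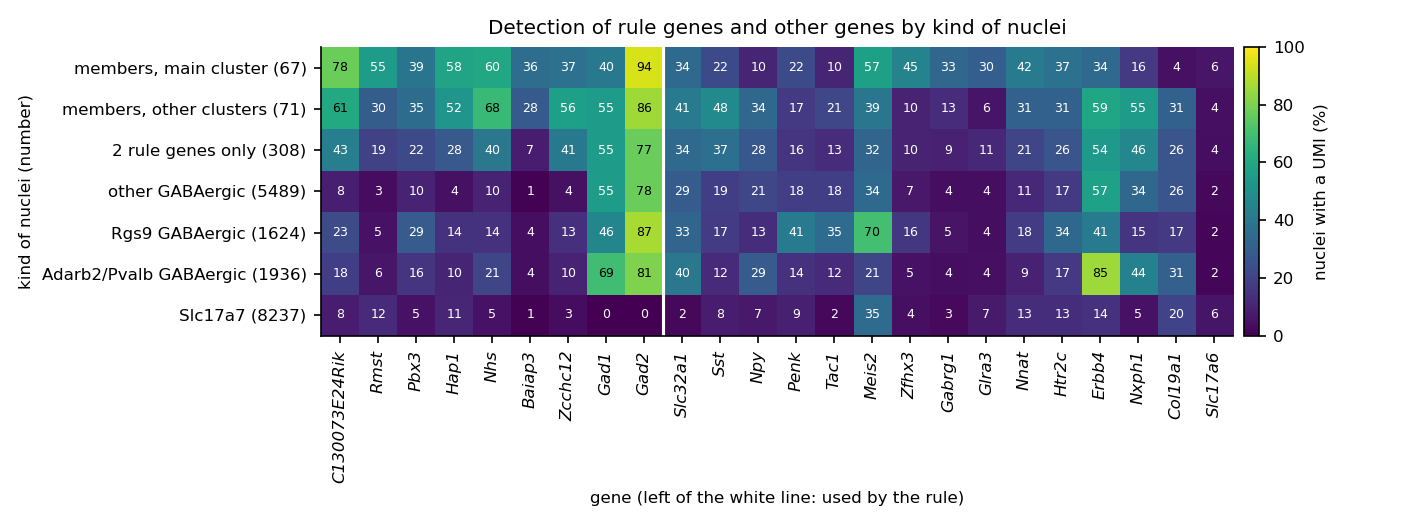
Share of nuclei with at least 1 UMI (colour and printed number, in %) for 24 genes along the horizontal axis and 7 kinds of nuclei along the vertical axis, with the number of nuclei in brackets; genes left of the white line were used by the rule. Zfhx3, Gabrg1 and Glra3 were most frequent in members of the main cluster, and Sst, Npy and Nxph1 were more frequent in members of other clusters.

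Genes that the rule did not use were then compared between the members and the other GABAergic nuclei of the same mice. Since the members were chosen on expression, and nuclei with Rgs9, Adarb2 or Pvalb remained among the others, this is a description with no test. By CPM, 58 of the 2721 genes found in at least 20% of members were higher in members in all 8 mice, and 78 of the 1843 genes found in at least 20% of the others were lower in all 8. Each set was filtered on the nuclei in which its genes are high, so the counts support nothing by themselves. Gabrg1 led the first set, with 107 CPM in members and 18.4 CPM in the others, a ratio of 5.79. Its values in the control mice were 86.2, 97.6, 70.4 and 213 CPM and in the CUS mice 240, 66.4, 173 and 37.3 CPM. It was higher in members than in the other nuclei of the same mouse in 8 of 8 mice, varied widely among mice, and the groups overlapped.

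Nnat, the imprinted gene of neuronatin, was at 281 against 82.6 CPM, a ratio of 3.40. Zfhx3 was at 135 against 40.2 CPM, a ratio of 3.35, but members outside the main cluster were at 32.1 CPM, below the other GABAergic nuclei. Camk2d, which encodes a calcium/calmodulin-dependent kinase subunit, was at 494 against 179 CPM, a ratio of 2.76. Other genes higher in all 8 mice included Col25a1, a transmembrane collagen gene (2.62), Scn9a, a voltage-gated sodium channel gene (2.53), Zfp804b (2.49), Vat1l (2.45), Nell1 (2.36), Gprasp2 (2.13) and the serotonin receptor gene Htr2c (2.11). The unnamed transcripts Gm32647 and 6330403K07Rik had ratios of 3.14 and 3.07. Thinned to 1000 UMIs, Gabrg1 was in 9.85% of members and 2.05% of the others, Nnat in 19.7% and 6.96%, and Zfhx3 in 12.9% and 3.76%.

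The genes lower in members were led by Slc4a4, a sodium bicarbonate cotransporter gene, with 81.2 CPM against 263 CPM, a ratio of 0.309. Hpca, which encodes the calcium sensor hippocalcin, followed at 83.5 against 203 CPM (0.411), and Kcnmb2, a subunit gene of calcium-activated potassium channels, at 76.6 against 173 CPM (0.443). Cplx1, which encodes the presynaptic protein complexin, had a ratio of 0.455. The actin regulator gene Phactr1 had a ratio of 0.516. Slc4a4, Hpca and Phactr1 were at 455, 424 and 3752 CPM in the 1624 Rgs9 GABAergic nuclei, a kind that the rule keeps out of the members. Kcnmb2 was at 271 CPM in the 1936 nuclei with Adarb2 or Pvalb, also kept out.

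Markers of other cell types were counted in the members as a check of purity. Of 10 astrocyte markers, 10 had a UMI in some member, with Slc1a2 in 57 and Aqp4 in 3. Their summed level per mouse ran from 791 to 1467 CPM in control and from 385 to 3152 CPM in CUS mice. Of 12 oligodendrocyte-lineage markers 12 had a UMI, with sums of 274 to 1091 CPM in control and 166 to 915 CPM in CUS mice. Of 10 choroid plexus genes 4 had one, and Folr1, Igf2, Kl, Kcnj13, Otx2 and Aqp1 had none. Of 12 microglial and endothelial markers 7 had a UMI, with sums of at most 86.8 CPM in any mouse. The excitatory markers Nrgn, Mef2c and Camk2a were found in 81, 75 and 62 members, and 14 of 15 such markers had a UMI although Slc17a7 was at 0 by the rule. Summed over all mice, excitatory markers were at 1800 CPM in members, 2551 CPM in other GABAergic and 4622 CPM in Slc17a7 nuclei. Astrocyte markers were at 1011 CPM in members and 1288 CPM in other GABAergic nuclei, and oligodendrocyte-lineage markers at 578 and 1090 CPM. Choroid plexus genes were at 97.4 and 318 CPM, and microglial and endothelial markers at 39.4 and 73.9 CPM. Each list was thus lower in members than in the other GABAergic nuclei. Against the Slc17a7 nuclei, astrocyte markers (945 CPM there) and oligodendrocyte-lineage markers (444 CPM) were higher in members, and the other lists were lower. The part of these markers in the comparisons of CUS with control was not tested.

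The first comparison of conditions asked whether members took another share of the nuclei after CUS. The share was 0.261%, 0.476%, 0.524% and 0.618% in the control mice and 0.222%, 0.348%, 0.610% and 0.472% in the CUS mice. The groups overlapped almost fully. The mean was 0.470% ± 0.151 (SD, n = 4) in control and 0.413% ± 0.166 (SD, n = 4) in CUS mice, and the difference of -0.0569 percentage points had p = 0.6 in a two-sided exact permutation test over mice, where the smallest p possible was 0.0286. As shares of the GABAergic nuclei, the members made up 1.08% to 2.70% in control and 1.02% to 3.11% in CUS mice, and the direction turned, by 0.164 percentage points. Leaving out CUS replicate 1 turned it as well, to 0.00679 percentage points.

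All nuclei of the main cluster, whether members or not, were counted in the same way after the data were seen. Their share was 3.66%, 2.98%, 3.04% and 3.88% in control mice and 2.00%, 3.27%, 2.25% and 2.61% in CUS mice. One CUS mouse, replicate 2, lay among the controls and the other 3 lay under all of them. The means were 3.39% ± 0.446 and 2.53% ± 0.555 (SD, n = 4 each), and the exact permutation p was 0.0857.

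**Figure D3:**
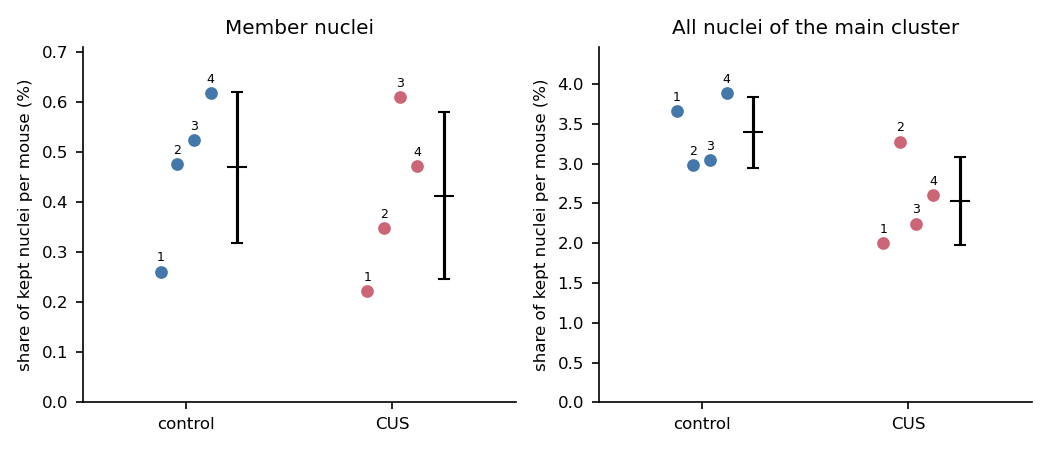
Share of kept nuclei per mouse, in %, for member nuclei (left) and for all nuclei of the main cluster (right), with a point for each mouse labelled by its replicate number and bars for the mean ± SD of 4 mice. The groups overlap in both panels.

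No difference in the makeup of the members between conditions was detected with 4 mice a group. The part of the members in the main cluster was 50.9% ± 10.7 in control and 48.4% ± 15.1 in CUS mice (SD, n = 4; exact permutation p = 0.771). The Sst-led cluster held 11.1% ± 9.49 and 19.8% ± 9.18 (exact permutation p = 0.2), and the Tac1-led cluster 12.2% ± 12.0 and 8.92% ± 9.62 (exact permutation p = 0.686). Over the 5 clusters compared, every p adjusted for the 5 was 1. Median UMIs of the members were 2890 ± 720 in control and 2602 ± 645 in CUS mice (SD, n = 4; exact permutation p = 0.571). The mitochondrial part of their UMIs was 0.866% ± 0.322 and 0.481% ± 0.217 (exact permutation p = 0.0857), with overlapping groups.

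The second comparison asked which genes differed between CUS and control within the members. UMIs were summed over the members of each mouse and tested with edgeR's quasi-likelihood test on 6216 genes, with Benjamini-Hochberg adjustment and a false discovery rate (FDR) of 0.2. One gene passed, 0.0161% of those tested, and it was lower after CUS; 255 genes (4.1%) had an unadjusted p under 0.05, and DESeq2 called 0 genes, with 82 at an unadjusted p under 0.05. The gene was Trpm3, which encodes a calcium-permeable cation channel. DESeq2 gave it no adjusted p, so the 0 calls of DESeq2 do not bear on Trpm3. The scaled CPM of Trpm3 was 5053, 314, 245 and 404 in the control mice and 184, 369, 357 and 307 in the CUS mice. Control replicate 1 stood far above the other 7 mice, which overlapped. The log2 fold change was -2.06 (SE 0.46) with an adjusted p of 0.112 by edgeR.

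The Trpm3 difference rested on 1 nucleus. Of the 108 Trpm3 UMIs in the 9 members of control replicate 1, 99 lay in a single nucleus of 4476 UMIs. That nucleus held 1 Gad2 UMI, no Gad1, 3 rule genes, and 18 UMIs of Bnc2, a zinc finger gene, which no other member held. It belonged to a cluster of 64 nuclei led by Bnc2, Fbxl7, Mgp, Cped1 and Slc47a1. Without that nucleus the log2 fold change of Trpm3 was -0.11 and the adjusted p by edgeR 0.999. Without control replicate 1 it was 0.01, and within the members of the main cluster 0.11. In bulk mPFC nuclear RNA, Trpm3 was at 379, 380, 284 and 441 CPM in control and 385, 235, 228, 170 and 154 CPM in CUS mice, a log2 fold change of -0.67 (SE 0.22) with an adjusted p of 0.104 by edgeR, which did not pass.

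With the nucleus left out, 2 other genes (0.0324% of 6179) passed the FDR of 0.2, Ano3 and Tac1, both lower after CUS. Ano3, an anoctamin gene, had 0, 576, 286 and 742 scaled CPM in the control mice and 147, 36.9, 99.2 and 154 CPM in the CUS mice. Control replicate 1 held none, and the other controls were above every CUS mouse. In the fit with all members the log2 fold change was -1.84 (SE 0.45) with an adjusted p of 0.275 by edgeR. Tac1, the precursor gene of substance P, had 0, 249, 163 and 674 CPM in the control and 36.7, 0, 139 and 27.9 CPM in the CUS mice. Control replicate 1 and CUS replicate 2 held none, and the other controls were again above every CUS mouse. The log2 fold change was -2.18 (SE 0.57) with an adjusted p of 0.525 by edgeR. Without the nucleus, Ano3 was at -1.85 (adjusted p of 0.126 by edgeR) and Tac1 at -2.20 (adjusted p of 0.194 by edgeR). With nuclei of 2 rule genes added, Ano3 was at -0.69 and Tac1 at -0.47, and over all nuclei of the main cluster Ano3 was at -0.33. Tac1 turned to 0.75 within members of the main cluster and was at -4.87 in members outside it (adjusted p of 0.0002 by edgeR). It was at -3.59 without high doublet scores (adjusted p of 0.00439 by edgeR) and at -3.32 without CUS replicate 3 (adjusted p of 0.182 by edgeR). Ano3 without high doublet scores was at -1.65 (adjusted p of 0.873 by edgeR). With at least 1000 genes a nucleus, Ano3 was at -2.19 (adjusted p of 0.00695 by edgeR) and Tac1 at -2.09 (adjusted p of 0.243 by edgeR). With at least 4 rule genes, Ano3 was at -1.44 and Tac1 at -0.72, both with an adjusted p of 0.999 by edgeR. Ano3 UMIs were found in 41 members and Tac1 UMIs in 22, at most 11 and 10 of them in 1 nucleus. By mouse, Tac1 was found in 0 of 9, 6 of 23, 6 of 26 and 6 of 14 members in control. In CUS mice it was found in 1 of 9, 0 of 12, 2 of 22 and 1 of 23 members.

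Bnc2 and Foxp1 completed the 5 genes with the smallest p among those lower after CUS. All 18 Bnc2 UMIs lay in the nucleus with most Trpm3. Foxp1, a forkhead factor gene of striatal and cortical neurons, had 561, 183, 299 and 539 CPM in control and 220, 36.9, 79.3 and 126 CPM in CUS mice, where only 1 control mouse lay within the CUS range. Its log2 fold change was -1.61 (SE 0.45; adjusted p of 0.608 by edgeR), and -0.91 with nuclei of 2 rule genes added.

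Over all members, no gene was higher after CUS at the FDR of 0.2 by edgeR's quasi-likelihood test, DESeq2 or the likelihood ratio test, all without a replicate block. The 5 with the smallest p are given as values. Kcnc2, a potassium channel gene of fast-spiking neurons, had 187, 668, 476 and 775 CPM in control and 771, 2178, 1011 and 782 CPM in CUS mice. Its log2 fold change was 1.07 (SE 0.32), 0.65 without CUS replicate 2 and 0.05 with at least 4 rule genes. Epha7, an ephrin receptor gene, had 46.8, 91.6, 40.8 and 67.4 CPM in control and 184, 111, 178 and 265 CPM in CUS mice, with groups that did not overlap and a log2 fold change of 1.58 (SE 0.52), which turned to -0.02 with nuclei of 2 rule genes added. Edil3, which encodes a secreted integrin ligand, had 140, 275, 327 and 33.7 CPM in control and 404, 369, 456 and 628 CPM in CUS mice, and a log2 fold change of 1.08 (SE 0.36). Atxn2l and Ranbp17, which encode an ataxin-2-like protein and an exportin-like protein, had log2 fold changes of 1.85 (SE 0.57) and 1.79 (SE 0.61). With nuclei of 2 rule genes added, Edil3 was at 0.34, Atxn2l at 0.91 and Ranbp17 at 0.27. The 5 adjusted p-values by edgeR were 0.975 or above. Over all nuclei of the main cluster, Kcnc2 was at -0.08, Epha7 at -0.13 and Edil3 at -0.14. Groups did not overlap for 161 of 6216 genes, 2.59%.

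**Figure D4:**
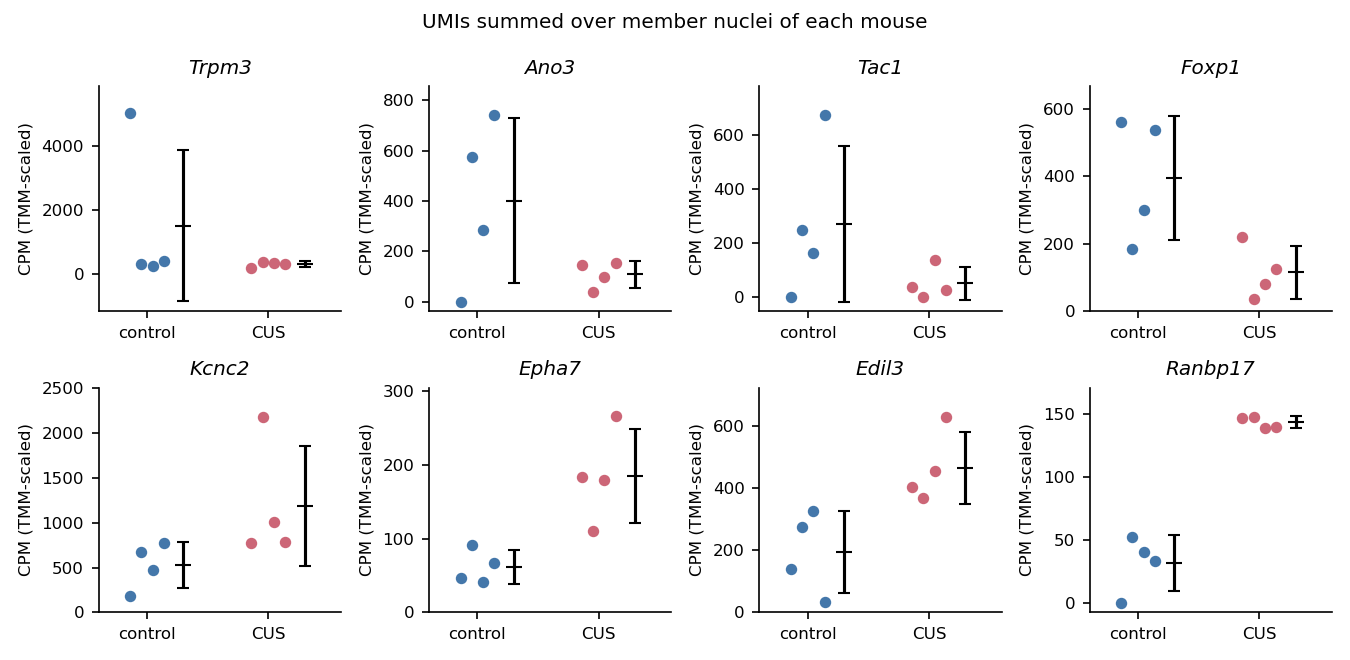
TMM-scaled CPM of 8 genes in UMIs summed over the member nuclei of each mouse (vertical axes, with a scale for each gene), with a point for each of 4 control (blue) and 4 CUS (red) mice and bars for the mean ± SD. The high Trpm3 point of 5053 CPM is control replicate 1, and Epha7, Edil3 and Ranbp17 have groups that do not overlap although none passed the FDR of 0.2.

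The gene lists were read against the median log2 fold change of all 6216 genes, -0.02. The medium spiny list stood lowest among those with more than 5 genes tested. Of its 18 genes 11 were tested, 10 were lower and 1, Meis2, was higher after CUS; none passed, and the median was -1.31. An unadjusted p under 0.05 was found for 5 of the 11, and for 4.1% of all genes tested. Rgs9, a defining member, was at 0 by the rule. Its largest differences were those of Foxp2 (-1.75), Gng7 (-1.68) and Foxp1, and Meis2 was at 0.45, Pde10a at -0.75 and Penk at -1.15. The summed level of the list was 1671 to 3622 CPM in control and 1095 to 1923 CPM in CUS mice, so the groups overlapped. Within members of the main cluster the median was -0.82, with 9 of 10 genes lower, and over all nuclei of that cluster -0.29, with 6 of 8 lower. Outside it the median was -1.18, with 8 of 10 lower, and 1, Foxp2, passed, as did 7 of all 6429 genes tested there (0.109%). In the other GABAergic nuclei of the same mice, 14 of 14 genes tested were lower, with a median of -0.41, and none passed.

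The genes of GABA synthesis and transport gave a median of -0.06 over 5 tested, with Gad2 and Gad1 both at -0.06 and Slc32a1 at 0.31. Of 14 GABA-A receptor genes 10 were lower, with a median of -0.14. Gabra4 (-1.56) and Gabra2 (-0.65) had groups that did not overlap, as did 2.59% of all genes tested. Gabra2 had 842, 655, 639 and 573 CPM in control and 477, 369, 317 and 517 CPM in CUS mice. Neither passed, and both had an adjusted p of 0.9998 by edgeR. Of 15 ionotropic glutamate receptor genes 9 were lower and 6 higher, with a median of -0.13.

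Neuropeptide genes gave 5 higher and 7 lower of 12, with a median of -0.08. Cort, the cortistatin precursor, had the largest difference, 2.41, from 0, 26.2, 0 and 33.7 CPM in control to 73.4, 36.9, 39.7 and 168 CPM in CUS mice. Sst itself was at 0.39, with 749, 1964, 1170 and 1618 CPM in control and 2571, 36.9, 2499 and 2150 CPM in CUS mice, where CUS replicate 2 was far below the rest. Of 28 dense-core vesicle genes 16 were higher and 12 lower, with a median of 0.06. Among hormone and peptide receptor genes, Nr3c2, which encodes the mineralocorticoid receptor, had 842, 367, 190 and 135 CPM in control and 0, 185, 139 and 126 CPM in CUS mice. Its log2 fold change of -1.51 had an adjusted p of 0.975 by edgeR. Nr3c1, the glucocorticoid receptor gene, was at 0.47 (SE 0.50).

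The genes that glucocorticoids or activity induce were too sparse for most to be tested. Of 25 glucocorticoid-induced genes 4 were tested and 4 were higher, with a median of 0.69, led by Klf9 (0.93), Mt1 (0.90) and Sgk1 (0.49), and none passed. Of 60 activity-regulated genes 16 were tested, 9 higher and 7 lower, with a median of 0.04; Egr1 was at -0.98 and none passed. The 9 architectural factor genes, which encode CTCF, YY1, cohesin and its partners, gave 7 lower and 2 higher, with a median of -0.21. Ctcf had 281, 170, 95.2 and 33.7 CPM in control and 36.7, 111, 39.7 and 69.8 CPM in CUS mice, a log2 fold change of -1.08 (SE 0.58). Of 43 cell adhesion and guidance genes 25 were lower and 18 higher, with a median of -0.11. Of 24 ribosomal protein genes 13 were higher, with a median of 0.06, and of 5 mitochondrial transcripts 4 were lower, with a median of -0.47. Of 10 interneuron markers 6 were higher, with a median of 0.14. That list, and not the medium spiny list, held Tac1, its largest difference (-2.18). Of 16 subpallial and hypothalamic factor genes 9 were lower, with a median of -0.08. Of the other cell types, 7 of 8 excitatory and 2 of 6 astrocyte markers were lower. No gene of these lists passed the FDR of 0.2 in all members.

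The rule genes themselves cannot be tested within nuclei chosen on them. Baiap3 had 46.8, 118, 136 and 101 CPM in control and 184, 221, 139 and 237 CPM in CUS mice, with every CUS mouse above every control. Of the 7 rule genes this was the 1 whose groups did not overlap, against 2.59% of all genes tested. Nhs had 795, 393, 313 and 573 CPM in control and 147, 221, 436 and 363 CPM in CUS mice. Rmst had 234, 301, 340 and 573 CPM in control and 257, 369, 178 and 307 CPM in CUS mice. Nhs and Rmst overlapped between the groups. The summed level of the 7 was 1714 to 2374 CPM in control and 1202 to 2688 CPM in CUS mice.

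The third comparison asked whether a CUS effect in members differed from that in the other GABAergic nuclei of the same mice, by the interaction term in edgeR. None of 4730 genes passed the FDR of 0.2, 0.0% of those tested. At an unadjusted p under 0.05 there were 166 (3.51%), and the likelihood ratio test also called 0. The smallest p belonged to Epha7, whose effect was 1.58 in members and -0.21 in the others, a difference of 1.90 (SE 0.51; adjusted p of 0.998 by edgeR). Edil3 followed with 1.08 and -0.22, a difference of 1.32 (SE 0.37), and Inpp4b, a phosphoinositide phosphatase gene, with 0.98 and -0.18, a difference of 1.22 (SE 0.36). Tac1 was at -2.18 and -0.26, and Ano3 at -1.84 and -0.42. Effects in members and in the others came from separate fits and the differences from a joint fit, so they do not subtract exactly.

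The last comparison took the rule genes to bulk mPFC nuclear RNA of 9 mice of another age, sampled after behavioural testing rather than directly after the stressors, which played no part in the choice of members. Here fewer cells of a type and less RNA per cell cannot be told apart. Nor can bulk RNA be assigned to the members, which were 138 of 31486 kept nuclei. The summed level of the rule genes in single nuclei was 1935 CPM in members. It was 587 CPM in Rgs9 GABAergic nuclei, 563 CPM in GABAergic nuclei with Adarb2 or Pvalb and 215 CPM in Slc17a7 nuclei. Of 18394 genes tested with edgeR, 606 (3.29%) passed an FDR of 0.05, with 392 (2.13%) lower and 214 (1.16%) higher after CUS. This count depended on the mice and the test. It was 132 without control replicate 2, 353, 315, 148 and 142 without CUS replicates 1, 3, 4 and 5, and 1500 without control replicate 3, where 767 were higher and 733 lower. The likelihood ratio test called 1330 and DESeq2 1402, and without TMM factors 619 were lower and 203 higher. Groups did not overlap for 8.76% of these genes and overlapped for each of the rule genes. Of the 7 rule genes 2 passed, both lower. C130073E24Rik had 17.6, 32.1, 15.1 and 36.8 CPM in control and 6.43, 20.2, 7.95, 6.86 and 8.99 CPM in CUS mice. CUS replicate 2 lay above 2 of the controls and the other CUS mice lay below all of them. The log2 fold change was -1.35 (SE 0.33) with an adjusted p of 0.0474 by edgeR. Baiap3 had 3.59, 5.06, 4.74 and 6.08 CPM in control and 2.45, 3.39, 2.09, 3.18 and 3.65 CPM in CUS mice, where only CUS replicate 5 reached the lowest control. Its log2 fold change was -0.73 (SE 0.18) with an adjusted p of 0.04996 by edgeR. Within the members, C130073E24Rik was at 0.005 and Baiap3 at 0.80, so neither was lower after CUS there. The members were chosen on these genes, so those 2 values are no test.

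Both calls lay at the edge of the threshold. None of the 7 rule genes passed without control replicate 2 or 4, or without CUS replicate 1, 3, 4 or 5, while the direction of both genes held each time. Without CUS replicate 2, Baiap3 no longer passed, and C130073E24Rik and Pbx3 did.

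The other 5 rule genes did not pass. Pbx3 had 56.9, 111, 52.9 and 99.3 CPM in control and 41.0, 94.8, 35.2, 31.5 and 27.8 CPM in CUS mice, a log2 fold change of -0.80 (SE 0.33; adjusted p of 0.183 by edgeR), and without CUS replicate 2 it was at -1.24 with an adjusted p of 0.0177 by edgeR. Its high mice were control replicates 2 and 4 and CUS replicate 2, the same 3 that were highest for C130073E24Rik. Rmst had 157, 140, 138 and 125 CPM in control and 160, 164, 158, 149 and 152 CPM in CUS mice, a log2 fold change of 0.16 (SE 0.07; adjusted p of 0.17 by edgeR). Zcchc12, Nhs and Hap1 were at -0.34, 0.07 and -0.04. The general GABAergic genes were at -0.32 for Gad1, -0.26 for Gad2 and -0.01 for Slc32a1, and none passed.

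Medium spiny markers also varied among the bulk mice. Of 17 tested, 1 passed, Pde10a, which was higher (0.61), against 3.29% of all genes that passed and 1.16% that were higher. The median of the list was -0.56. Drd2 had 2.38, 1.79, 4.15 and 19.0 CPM in control and 1.18 to 2.24 CPM in CUS mice, with control replicate 4 far above the rest. The summed level of the list was 1867 to 2527 CPM in control and 2406 to 2669 CPM in CUS mice. Control replicate 4 was also highest for C130073E24Rik and Baiap3, and the part of these markers in both calls was not tested.

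**Figure D5:**
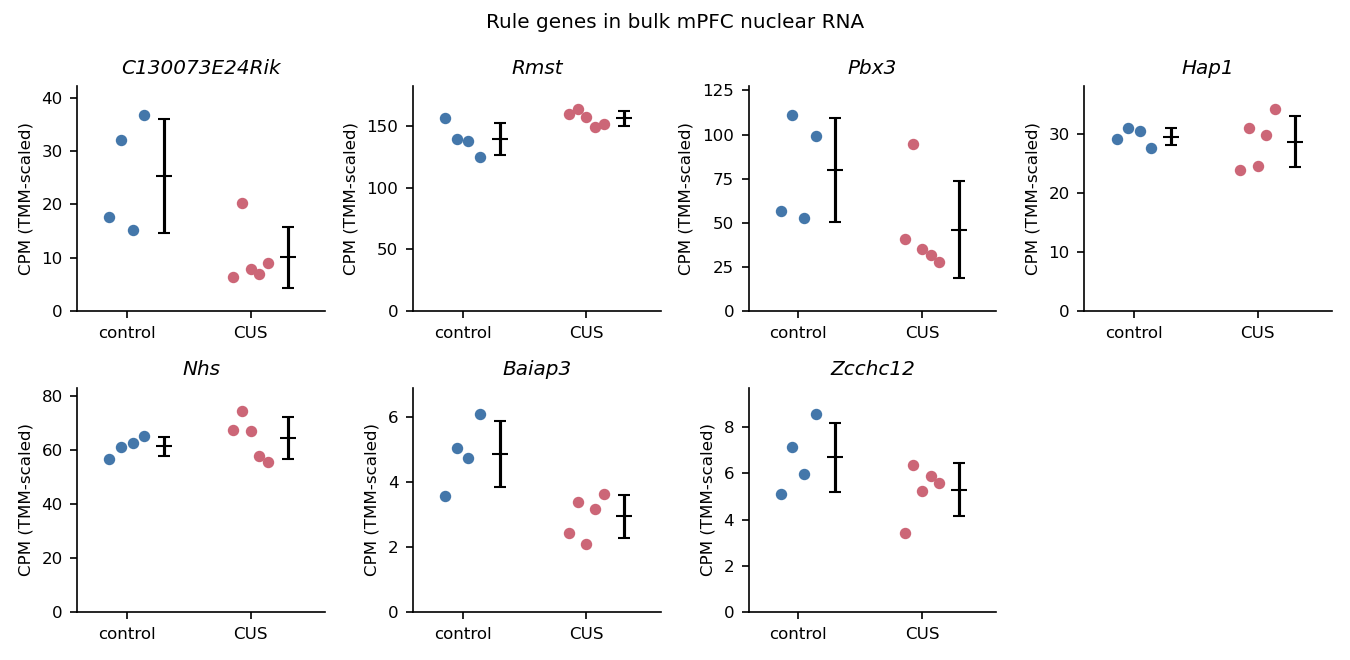
TMM-scaled CPM of the 7 rule genes in bulk mPFC nuclear RNA (vertical axes, with a scale for each gene), with a point for each of 4 control (blue) and 5 CUS (red) mice and bars for the mean ± SD. C130073E24Rik and Baiap3 were lower after CUS at an FDR of 0.05, with 1 CUS mouse of each within the control range.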

How the data were processed

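Neocortical nuclei of 8 male mice were profiled by sNucDrop-seq and mPFC nuclear RNA of 9 mice in bulk. The authors deposited UMI counts per gene and barcode (5000 barcodes a mouse) and read counts per gene; per the labels reads were mapped to mm10 with STAR, and Seurat and edgeR were used. Bulk totals were 26188825 to 30525015 reads. Per mouse 2267 to 4959 nuclei were kept, and pairs of libraries shared 0 to 4 barcodes. No doublet was removed in the main analysis. Clustering used 50 principal components, 20 neighbours and the Leiden algorithm (leidenalg 0.10.2) at resolution 1.

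UMIs were summed per mouse and tested with edgeR 4.0.16 (quasi-likelihood, TMM factors) on genes with summed UMIs above 10% of the number of members, at an FDR of 0.2; bulk counts were filtered with filterByExpr, at an FDR of 0.05. DESeq2 1.42.0 and the likelihood ratio test were alternatives. Each SE given is the size of the log2 fold change divided by the square root of edgeR's F statistic, not a separate estimate. The edgeR tests on nuclei were tried on simulated data first. The study's methods use a batch term, but the labels do not give the batch of a mouse, so none was fitted. The study's methods describe individual mice, so p-values measure the spread between these mice. Shares were compared by exact permutation tests. CPM in the tests of conditions are TMM-scaled, and other CPM are UMIs scaled to the summed UMIs of the nuclei. The UMI counts do not correct for gene length, so levels of different genes were not compared, and the highest counts in a list served only to pick names.

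Members and lists were chosen with earlier results of these data known. Named genes were the rule genes, the 5 with the smallest p in each direction (or all past the FDR, up to 12), the 3 largest changes and 3 with the highest counts of each list, the 3 smallest p of the interaction, the 12 largest ratios of CPM in each direction (same side in 8 mice, in 20% of nuclei) and the 5 leading genes of clusters. Ddc, Gabrg1, Crhbp and the other genes named in the description by cluster, transmitter or peptide were chosen after their values were seen. Some genes that meet these rules are not reported here.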

Additional observations from a re-analysis of the deposited data

Results flagged for a closer look

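In 5 of 50 groups of 4 or 5 mice, a sample lay farther from the others than Dixon's 95% critical value, where chance gives about 1 in 20. The groups are those of named genes, some picked for a small p, and several flags share a nucleus or a mouse, so 5 of 50 cannot be read against that share. In the members, control replicate 1 held 5053 CPM of Trpm3 and 842 CPM of Bnc2, both from the nucleus described in the report. CUS replicate 2 held 2178 CPM of Kcnc2. In bulk mPFC nuclear RNA, CUS replicate 2 held 20.2 CPM of C130073E24Rik and 94.8 CPM of Pbx3, each far above the other 4 CUS mice.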

How the results depend on the processing

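The difference in member share was -0.0569 percentage points and turned to 0.0070 without nuclei of a doublet score above 0.2 and to 0.164 as a share of GABAergic nuclei. Leaving out 1 mouse gave -0.126 to 0.00679. It kept its sign in the other alternatives, and with the replicate block it was -0.0569 (exact permutation p = 0.375). Genes called in members, 1 in the main analysis, were 0 with DESeq2, which gave no adjusted p for Trpm3. They were also 0 with at least 2 and 0 with at least 4 rule genes. Summed UMIs above the number of nuclei gave 0, as did all nuclei of the main cluster. Calls numbered 3 without high doublet scores, 3 with at least 1000 genes a nucleus, 3 with no filter and 4 with the likelihood ratio test. There were 7 outside the main cluster (1 higher after CUS, Il1rapl2) and 2 without the Trpm3-rich nucleus. Members of the main cluster gave 1, lower after CUS, which was none of Trpm3, Ano3 and Tac1. With the replicate block there were 5, Ano3, Foxp1, Kcnc2, Tac1 and mt-Rnr2, of which Kcnc2 was higher. Same-numbered mice deviated with correlations of -0.02 to 0.03, and other pairs of a control and a CUS mouse with -0.04 to 0.04. With so few UMIs a gene, these values cannot show whether the numbers pair the mice. Leaving out 1 mouse gave 0 to 5 calls, 0 without CUS replicate 1 and 5 without control replicate 3 or CUS replicate 4. For the interaction, 1 gene passed without high doublet scores, and 0 to 2 with 1 mouse left out, 2 without CUS replicate 2. Of the 7 rule genes in bulk, 0 to 2 passed with 1 mouse left out, with Pbx3 in place of Baiap3 without CUS replicate 2, and 2 with the replicate block and every other alternative run. Of all bulk genes, 606 passed in the main analysis, 132 to 1500 with 1 mouse left out and 233 with the replicate block. The block in bulk was fitted without CUS replicate 5, which has no control of its number. Without that mouse and with no block, 142 genes passed, 0 of them rule genes.

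Trpm3 turned to 0.0766 over all nuclei of the main cluster and 0.11 over its members, and ran from -2.42 to 0.0055 with 1 mouse left out. Tac1 turned to 0.22 and 0.75 in these sets, Kcnc2 to -0.0800, Epha7 to -0.13 and Edil3 to -0.14 over all nuclei of the main cluster, and Epha7 to -0.0180 with 2 rule genes. Bnc2 ran from -6.05 to 0 and Hap1 in bulk from -0.11 to 0.0149 with 1 mouse left out. The cause was not tested. The alternatives on clusters and on the Trpm3-rich nucleus were chosen after seeing the data. With 9 to 26 members a mouse, most genes had few UMIs, which limits what could be detected.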
